A study of Mus musculus with 6 samples.

Results

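Heat shock proteins and chaperones were compared between 2 kinds of cultured mouse bone marrow stromal cell, mesenchymal stem cells (MSC) and neural crest stem cells (NCSC), with 3 Affymetrix arrays of each. The genes were 32 chaperones, cochaperones and heat shock factors, listed by name and grouped by family. Of these, 30 had at least 1 probe set annotated to that gene alone, 77 probe sets in all, among 18193 such genes and 34945 such probe sets on the array. Hsp90ab1 and Hsf1 were not analysed here. A gene was tested when a probe set had a log2 intensity above 4, taken as the background limit, on at least 3 of the 6 arrays, and it was then represented by its brightest probe set. This left 29 of the 32 genes, among 10501 genes tested.

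Both cell types came from bone marrow of 10 week old female wnt1/CRE-R26R-lacZ mice on a C57BL/6 x SV129 background, and neither was treated. In such mice Cre is driven by Wnt1 sequences and switches on a lacZ reporter, which marks descendants of the neural crest, an embryonic cell population that gives rise to peripheral glia, pigment cells and other types. The cells were grown in Mesencult, a stromal cell medium, for 5 or more passages and then selected as clones, and how many clones each cell type stands for is not given in the sources used here. The labels number the arrays as replicates but do not tie them to different mice or clones. P-values here cover only the spread among these arrays, part of which may be technical, and clone and cell type cannot be told apart.

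Chaperones bind unfolded or partly folded proteins and keep them from aggregating. Small heat shock proteins hold unfolded clients without using ATP, HSP70 proteins bind and release them in ATP-driven cycles started by HSP40 (J domain) partners, and HSP90 with its cochaperones matures kinases and receptors. Separate sets serve the mitochondria and the endoplasmic reticulum (ER). Heat shock factor Hsf1 switches on many of the cytosolic genes when proteins unfold, and the unfolded protein response (UPR) does so for the ER. In cells at rest the constitutive members are among the most abundant transcripts, while several small heat shock proteins are known mainly from muscle.

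The labels were checked against markers. Of 6 NCSC markers with a probe set, 5 were above the limit on every NCSC array (Sox10, Ngfr, Foxd3, Erbb3 and Sox2) and none on every MSC array. The highest Sox10 value in MSC was 4.82, above the limit. The remaining marker, S100b, reached 7.72 in NCSC but was not above the limit on every NCSC array. All 7 MSC markers were above it on every MSC array, but 6 of them also on every NCSC array. Endothelial markers were under the limit on all arrays (6 of 6), as were 10 of 11 skeletal muscle markers and all 6 cardiac ones, and of 8 macrophage and blood cell markers Lyz2 alone was above it on every MSC array, and Lyz2 and Cd68 on every NCSC array. Between arrays of one cell type, the share of tested genes over 2-fold apart was 2.62% and 2.69% for the pairs with MSC 2 and 4.63% and 4.98% for those with NCSC 3. It was 0.409% and 0.438% for the remaining MSC and NCSC pair. Hspb8, on MSC 2, was the only tested chaperone gene with 2 arrays of one cell type more than 2-fold apart. The median SD of the chaperone genes was 0.0918 in MSC and 0.0951 in NCSC, against 0.119 and 0.152 over all tested genes. Signal at the 3' end of the Gapdh control transcript minus that at its 5' end lay between -0.15 and -0.06 on the log2 scale on all arrays, and that of the actin control between 0.39 and 0.52.

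The chaperone genes did not move as a block. Of the 29 tested, 10 were higher in NCSC, 9 were lower and 10 were not called at an adjusted p under 0.05 (limma, Benjamini-Hochberg over all 10501 genes). The 19 calls are 65.5% of the tested chaperone genes, and 64.1% of all tested genes were called, 35% higher and 29.1% lower. The share of calls was therefore close to the background. A call with at least a 2-fold difference was made for 8 chaperone genes (27.6%), 5 higher and 3 lower, against 29% of all genes, 15.1% higher and 14% lower. The median difference, NCSC minus MSC on the log2 scale, was 0.049 for the chaperone genes and 0.056 for all genes, and the median size of the difference was 0.46 against 0.55. For 20 chaperone genes (69%) the 95% confidence interval of the difference lay between -1 and 1, that is within 2-fold, and this held for 55.3% of all genes. The 2 groups of arrays did not overlap for 23 chaperone genes, or 79.3%, against 71.2% of all genes. The calls, 2-fold calls and non-overlapping groups include Hspb1, which passed the filter through its MSC arrays alone and so had to differ. The shares over all genes include such genes too. Above the limit on all arrays were 28 of the 29 chaperone genes and 9619 of the 10501 genes. With that required, 11 of 28 chaperone genes were higher and 8 lower, and 5947 of 9636 genes were called.

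**Figure D1:**
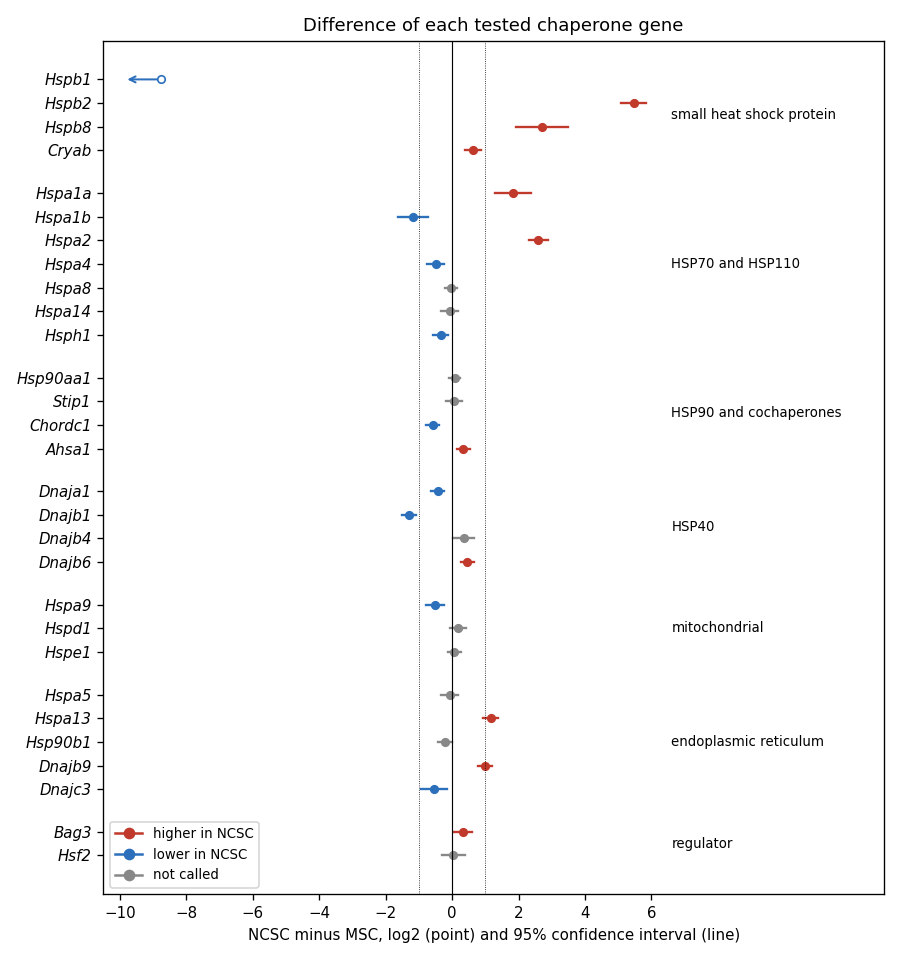
Difference between NCSC and MSC for each of the 29 tested chaperone genes, by class (log2, NCSC minus MSC; filled points are limma estimates, lines are 95% confidence intervals, dotted lines mark 2-fold; the open point with an arrow is a bound). Hspb1, at least 440-fold lower, and Hspb2, at 5.47, lie far from the other genes, and for 20 of the 29 genes the interval lies between the dotted lines.

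The widest differences were in the small heat shock proteins. All 4 that were tested were called, Hspb1 lower in NCSC and Hspb2, Hspb8 and Cryab higher, so the direction was not shared within the class. Of all tested genes 64.1% were called, and the call of Hspb1 was fixed by the filter, as described below. Hspb1, a stress-induced chaperone that also binds the actin cytoskeleton, was bright in MSC and not above the limit in NCSC. Its log2 intensity was 12.69, 12.79 and 12.87 in MSC and 3.16, 3.16 and 3.17 in NCSC. Every MSC array was bright and every NCSC array was below the background limit, with nearly constant values. The fall was at least 440-fold, with the NCSC arrays set at the limit. Hspb1 passed the filter through its MSC arrays alone and so had to differ, and its NCSC values are floor values, so the bound is given without an error or p-value. The other 28 tested chaperone genes were above the limit on all 6 arrays. A second probe set had 12.85, 12.78 and 12.72 in MSC against 2.48 on each NCSC array, and its bound was also 440-fold.

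Hspb2, a muscle-type small heat shock protein that binds the myotonic dystrophy kinase, was the opposite case. Its values were 5.25, 5.25 and 5.26 in MSC and 10.4, 10.95 and 10.83 in NCSC. The groups were far apart, and the MSC arrays hardly varied, with an SD of 0.00151. Whether 5.25 is the floor of this probe set was not tested, so the difference of 5.47 ± 0.15 (SE; limma adjusted p = 9.95e-07), or 44.3-fold, may be a lower bound. Hspb8, which works with Bag3 to clear misfolded proteins by autophagy, had 7.98, 6.79 and 7.96 in MSC and 10.33, 10.28 and 10.23 in NCSC. MSC 2 was the lowest array, and the groups did not overlap. Hspb8 was 6.51-fold higher in NCSC (2.70 ± 0.32; limma adjusted p = 0.000604), and a second probe set gave 3.22. Its partner Bag3, an HSP70 exchange factor, was higher by 0.34 ± 0.11 (limma adjusted p = 0.0379), from 11.66, 11.39 and 11.45 to 11.92, 11.69 and 11.92. That call for Bag3 was lost when MSC 2 (adjusted p = 0.0957), MSC 3 (0.114), NCSC 1 (0.114) or NCSC 3 (0.0783) was left out, over a range of 0.0249 to 0.137 in all settings, and with arrays centred on their median (0.059). Cryab, the alphaB-crystallin of lens and muscle, was bright in both cell types, at 14.61, 14.83 and 14.65 in MSC and 15.33, 15.42 and 15.22 in NCSC. It rose by 0.63 ± 0.099 (limma adjusted p = 0.002), and by 0.86 in its second probe set. Hspb7, the cardiovascular small heat shock protein, was not tested, since its 3 probe sets were at 2.12, the lowest value of the table, on all arrays but one, which had 2.31.

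**Figure D2:**
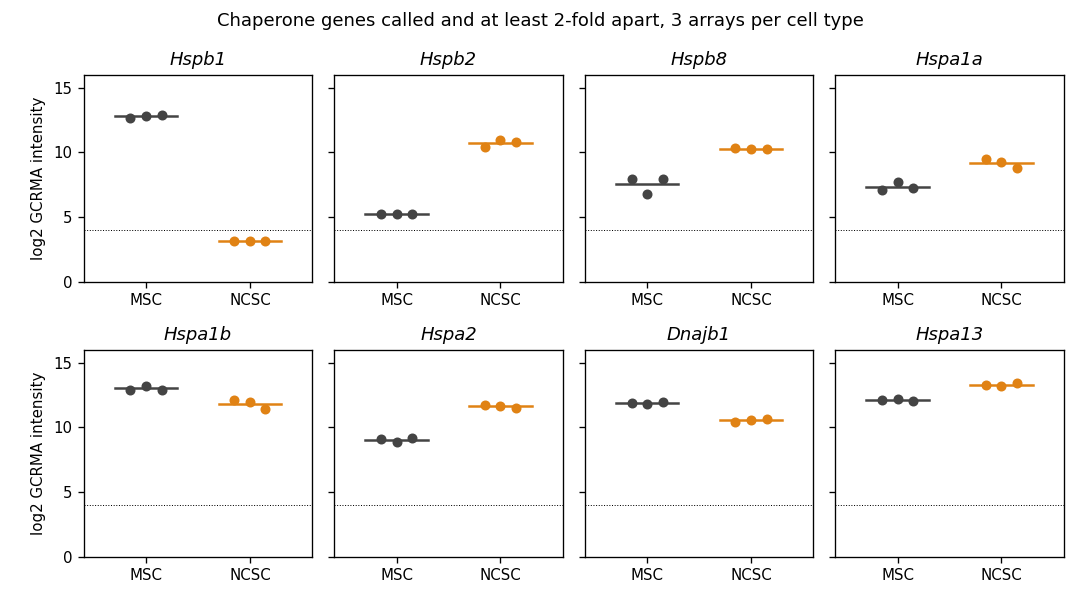
Log2 GCRMA intensity on each array (points) and group mean (bars) for the 8 chaperone genes called and at least 2-fold apart; the dotted line is the background limit of 4. Hspb1 lies below the limit on all 3 NCSC arrays, and in each panel the arrays of the 2 cell types do not overlap.

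Small heat shock proteins are abundant in muscle, and contractile genes are given beside them. The summed linear intensity of the 6 smooth muscle markers was 82900 to 89800 on the MSC arrays and 21300 to 26400 on the NCSC arrays, with Myh11 under the limit on every array. Acta2, Tagln, Cnn1 and Smtn were lower in NCSC, as Hspb1 was. Des was higher, as Hspb2 and Hspb8 were (Des had 3.05, 3.78 and 2.28 in MSC and 5.65, 4.79 and 4.42 in NCSC). Cnn1 passed the filter through its MSC arrays alone (highest NCSC value 2.38) and Des through its NCSC arrays alone. Both therefore had to differ, as Hspb1 did. The sum of the 11 skeletal muscle markers was 294 to 354 in MSC and 71.8 on every NCSC array, Acta1 being the one marker above the limit, and the sum of the 6 cardiac markers was 28.5 to 37.1 in MSC and 28.5 in NCSC. The sum of the 8 macrophage and blood cell markers was 145 to 149 in MSC and 728 to 878 in NCSC, with Ptprc, Adgre1, Itgam and Cd3e under the limit everywhere. Cd68 and Lyz2 were higher in NCSC, and Cd14 went the other way, with a highest value of 5.15 in MSC and 2.19 in NCSC. Cd68 was under the limit on every MSC array (highest value 3.15), so it too had to differ. The part of these other programmes in the chaperone differences was not tested. Fewer cells that express a gene and less RNA in each cell cannot be told apart in such bulk samples.

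Cytosolic HSP70 genes went in different directions. Of the 7 genes of the HSP70 and HSP110 class, all tested, 2 were higher (Hspa1a and Hspa2), 3 lower (Hspa1b, Hspa4 and Hsph1) and 2 not called. Hspa4 counts as lower by its brightest probe set only, as described below. That is 71.4% called, against 64.1% of all genes. Hspa2, an HSP70 best known from the testis, had 9.11, 8.82 and 9.16 in MSC and 11.69, 11.65 and 11.52 in NCSC. It was 6.04-fold higher in NCSC (2.59 ± 0.12, SE; limma adjusted p = 9.22e-06), and the arrays of each cell type lay close together.

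Hspa1a and Hspa1b, the stress-inducible pair, are neighbouring near-identical copies on chromosome 17, and their probe sets moved in opposite directions. Hspa1a had 7.13, 7.68 and 7.28 in MSC and 9.51, 9.27 and 8.80 in NCSC, a rise of 1.83 ± 0.23 (limma adjusted p = 0.000669). Hspa1b had 12.89, 13.19 and 12.91 in MSC and 12.07, 11.95 and 11.43 in NCSC, and fell by 1.18 on the log2 scale (SE 0.19; limma adjusted p = 0.00211). For neither gene did the groups overlap, and NCSC 3 was the lowest NCSC array in both. All 3 Hspa1b probe sets fell, with differences between -1.37 and -1.18, whereas Hspa1a rests on 1 probe set. Signal of near-identical copies can be shared between probe sets, so the assignment to one copy or the other is uncertain. The 250 bases before the start of each gene are shown because they are almost the same: 247 of 250 positions (98.8%) were identical, and from Hspa1a to Hspa1b the changes were C44T, T47C and T249G, counted from 1 at the 5′ end. The sequences are from RefSeq (GRCm38.p6, minus strand, chr17:34972157-34972406 for Hspa1a and chr17:34959239-34959488 for Hspa1b), and the Hspb1 stretch (plus strand, chr5:135887669-135887918) is added as that of the gene with the largest difference. Capitals mark GAANNTTC, a pair of inverted heat shock units to which heat shock factors are known to bind.

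Hspa1a: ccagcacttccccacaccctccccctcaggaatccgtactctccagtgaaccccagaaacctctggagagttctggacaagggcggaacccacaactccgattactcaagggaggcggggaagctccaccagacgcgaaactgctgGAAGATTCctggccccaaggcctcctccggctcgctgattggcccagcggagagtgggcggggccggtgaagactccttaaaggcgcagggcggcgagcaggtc
Hspa1b: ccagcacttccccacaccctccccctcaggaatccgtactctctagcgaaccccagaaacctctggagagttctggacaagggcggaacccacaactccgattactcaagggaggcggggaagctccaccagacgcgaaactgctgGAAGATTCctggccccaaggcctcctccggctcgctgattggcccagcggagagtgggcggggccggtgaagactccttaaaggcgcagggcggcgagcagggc
Hspb1: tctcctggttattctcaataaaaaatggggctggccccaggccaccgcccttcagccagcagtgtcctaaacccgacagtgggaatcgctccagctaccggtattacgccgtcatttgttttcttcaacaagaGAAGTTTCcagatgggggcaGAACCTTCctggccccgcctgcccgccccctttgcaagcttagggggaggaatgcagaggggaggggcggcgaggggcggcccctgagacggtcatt

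Both copies of Hspa1 held the same match, 104 to 97 bases before the start, and Hspb1 held 2, 117 to 110 and 97 to 90 bases before it. Of the 24 chaperone genes with a promoter sequence in the table used, 7 held GAANNTTC in a 250 base stretch, namely Hspb1, Hspa1a, Hspa1b, Dnaja1, Dnajb6, Hspd1 and Hspe1, against 7.73% of 27025 genes (6.69% of windows). The motif is its own reverse complement, so both strands were covered. The heat shock element of 3 alternating units, searched on both strands, was in Dnajb6, Hspd1 and Hspe1 and in 0.514% of all genes. It contains both GAANNTTC and TTCNNGAA. The latter motif, also its own reverse complement, was in Hsph1, Dnajb4, Dnajb6, Hspd1 and Hspe1 and in 8.11% of all genes. The genes with GAANNTTC included higher ones (Hspa1a, 1.83, and Dnajb6, 0.46), lower ones (Hspb1, at least 440-fold, Hspa1b, -1.18, and Dnaja1, -0.44) and some not called (Hspd1, 0.17, and Hspe1, 0.070). In Hspd1 and Dnajb4 the matches lay only before a start other than the one farthest upstream. Whether those of Hspd1 are the same bases as those of its neighbour Hspe1 was not examined. Hspa1a and Hspa1b are near-identical copies, so the genes with a match are not all separate cases. A match is a description of the letters only.

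The constitutive HSP70, Hspa8, was among the bright probe sets of both cell types, at 16.18, 16.23 and 16.23 in MSC and 16.21, 16.13 and 16.22 in NCSC, where the highest value of the whole table was 16.83. It was not called (-0.026 ± 0.073, SE; 95% confidence interval -0.20 to 0.15; limma adjusted p = 0.771). One of its 4 probe sets stood apart, with 9.60, 9.34 and 9.66 in MSC against 6.82, 6.37 and 6.99 in NCSC, a difference of -2.81 ± 0.18 (limma adjusted p = 5.86e-05 over 18640 probe sets). What part of the transcript this probe set reads was not examined. Hspa8 was called lower when probe sets were averaged, that one included (-0.79, limma adjusted p = 0.000557; range over all settings 0.000557 to 0.986). It was also called lower when probe sets of the types _s_at and _x_at were left out, through another probe set (-0.27, limma adjusted p = 0.0452). Hspa4, an HSP110-type exchange factor, showed calls both ways. Its brightest probe set fell from 13.74, 13.52 and 13.77 in MSC to 13.13, 13.09 and 13.33 in NCSC (-0.49 ± 0.11; limma adjusted p = 0.00829), another rose from 11.17, 11.01 and 11.11 to 11.46, 11.34 and 11.78 (0.43 ± 0.13; limma adjusted p = 0.0317 over probe sets), and a further one was not called (0.23). With probe sets averaged the Hspa4 difference was 0.053 and not called (adjusted p = 0.707; range over all settings 0.000191 to 0.707), so no single direction can be given for the gene. The related exchange factor Hsph1 fell by 0.35 on the log2 scale in both of its probe sets (SE 0.092; limma adjusted p = 0.0166), a call lost without MSC 1, MSC 3 or NCSC 2 (0.0629, 0.0601 and 0.0535; range over all settings 0.00478 to 0.0629). Hspa14, which acts at the ribosome, was not called (-0.079, interval -0.34 to 0.18), although a dim probe set of it was called higher (0.39).

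**Figure D3:**
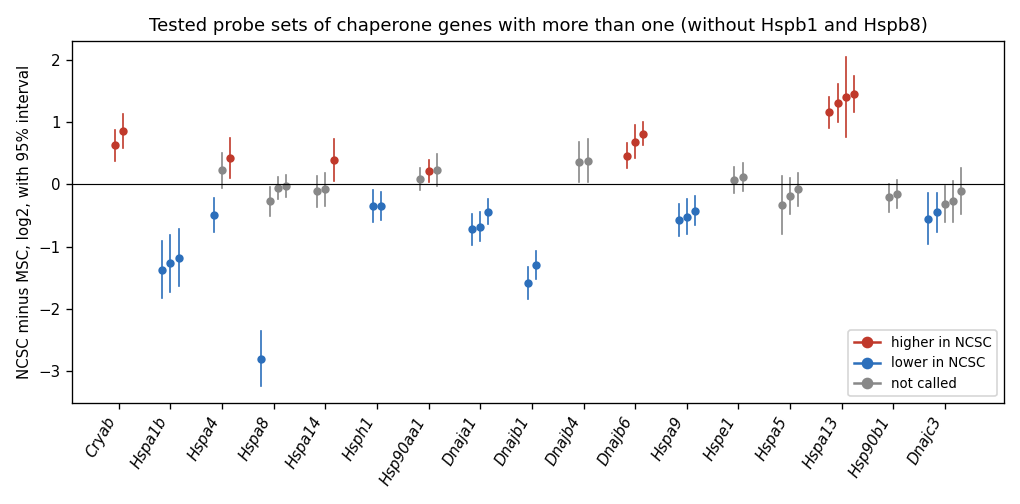
Difference of each tested probe set for chaperone genes with more than 1, except Hspb1 and Hspb8, which lie off this scale (log2, NCSC minus MSC; points are limma estimates, lines are 95% confidence intervals, colours give the call over probe sets). Hspa4 has a probe set called in each direction, and 1 probe set of Hspa8 lies at -2.81 while its others lie between -0.27 and -0.026.

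Of the 77 chaperone probe sets, 63 were tested and 40 were called (63.5%), against 60.1% of all 18640 tested probe sets. Of the 14 left out, 13 were under the limit on every array. More than 1 tested probe set was present for 19 genes. All probe sets of a gene had the same call in 14 of these and different calls in 5, namely Hspa4, Hspa8, Hspa14, Hsp90aa1 and Dnajc3, and only Hspa4 had calls in both directions.

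HSP40 partners of HSP70 were also divided. Dnajb1, the stress-induced J protein, had 11.85, 11.77 and 11.93 in MSC and 10.44, 10.57 and 10.64 in NCSC. The groups were clearly apart, and Dnajb1 was 2.46-fold lower in NCSC (-1.30 ± 0.091, SE; limma adjusted p = 6.39e-05), with -1.59 in its second probe set. Dnaja1, the main constitutive J protein of the cytosol, fell by 0.44 on the log2 scale (SE 0.079; limma adjusted p = 0.00333), and its 3 probe sets lay between -0.72 and -0.44. Dnajb6, which suppresses the aggregation of polyglutamine proteins, rose by 0.46 ± 0.083 (limma adjusted p = 0.00326), and its 3 probe sets lay between 0.46 and 0.81. Dnajb4 had 12.17, 12.34 and 12.19 in MSC and 12.75, 12.68 and 12.34 in NCSC, and missed the threshold (0.36 ± 0.13; limma adjusted p = 0.0507). NCSC 3 was its lowest NCSC array, close to MSC 2, and without NCSC 3 the gene was called higher (0.48, limma adjusted p = 0.00501; range over all settings 0.000737 to 0.149).

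HSP90 and its cochaperones differed by little. All 4 tested genes had confidence intervals within 2-fold, as 55.3% of all genes did. Of the 4, 2 were called (50%, against 64.1% of all genes). Hsp90aa1, the inducible cytosolic HSP90, had 15.44, 15.41 and 15.44 in MSC and 15.53, 15.49 and 15.52 in NCSC. The groups did not overlap, but the difference of 0.083 ± 0.069 (SE) was not called (95% confidence interval -0.085 to 0.25; limma adjusted p = 0.328), while 1 of its 3 probe sets was called higher (0.21). Stip1, the adaptor that hands clients from HSP70 to HSP90, was not called (0.049 ± 0.10; interval -0.19 to 0.29). Ahsa1, which stimulates the ATPase of HSP90, rose by 0.34 ± 0.080 (limma adjusted p = 0.00982), from 12.62, 12.52 and 12.61 to 12.93, 12.86 and 13. Chordc1, another HSP90 cochaperone, fell from 13.07, 13.09 and 12.94 to 12.47, 12.39 and 12.47 (-0.59 ± 0.081; limma adjusted p = 0.00104).

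The 3 mitochondrial chaperones had confidence intervals within 2-fold as well, and 1 was called (33.3%, against 64.1% of all genes). Hspa9, the mitochondrial HSP70 that also pulls proteins through the import channel, fell by 0.52 on the log2 scale (SE 0.11; limma adjusted p = 0.00746), with all 3 tested probe sets between -0.57 and -0.42. The chaperonin pair that folds imported proteins was not called. Hspd1 (HSP60) differed by 0.17 ± 0.097, with an interval of -0.064 to 0.41, and Hspe1 (HSP10) by 0.070 ± 0.083, with an interval of -0.13 to 0.27. Hspd1 and Hspe1 are neighbours on chromosome 1, as Cryab and Hspb2 are on chromosome 9. The former pair had similar small differences, whereas Hspb2 differed by 5.47 and Cryab by 0.63.

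In the ER, 2 of the 5 genes were higher in NCSC, 1 was lower, and Hspa5 and Hsp90b1 were not called. That is 60% called, against 64.1% of all genes. Hspa5 (BiP), the HSP70 of the ER and a standard readout of the UPR, had 15.63, 15.32 and 15.59 in MSC and 15.49, 15.41 and 15.40 in NCSC, with overlapping groups (-0.077 ± 0.11, SE; interval -0.34 to 0.18; limma adjusted p = 0.55). Hsp90b1 (GRP94), the HSP90 of the ER, was not called (-0.21 ± 0.088; limma adjusted p = 0.0747), although without NCSC 3 it was called lower (-0.26, limma adjusted p = 0.041; range over all settings 0.0197 to 0.19). Hspa13, a divergent microsomal HSP70, had 12.13, 12.18 and 12.03 in MSC and 13.26, 13.15 and 13.41 in NCSC. The groups were well apart, and it was 2.23-fold higher in NCSC (1.16 ± 0.097; limma adjusted p = 0.000135), with its 4 probe sets between 1.16 and 1.45. Dnajb9 (ERdj4), a J protein of the ER that holds BiP on the stress sensor Ire1, rose from 11.83, 11.80 and 11.78 to 12.65, 12.87 and 12.84 (0.98 ± 0.088; limma adjusted p = 0.000176). Dnajc3 (p58IPK), a J protein that restrains the kinase Perk, fell by 0.55 on the log2 scale (SE 0.17; limma adjusted p = 0.0268), but only 2 of its 5 probe sets were called, the difference was -0.34 with probe sets averaged, and the call was lost when MSC 1 (0.0804), MSC 3 (0.089), NCSC 1 (0.0828) or NCSC 2 (0.084) was left out, over a range of 0.000386 to 0.0922 in all settings.

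The ER stress element, searched on both strands, was present before the start of Hspa5, Hsp90b1 and Dnajc3 among the 24 chaperone genes with a promoter sequence, and in 0.13% of all genes. These stretches are shown because none of the 3 genes rose in NCSC while Hspa13 and Dnajb9 did, so the choice followed the differences. The Dnajb9 stretch held no match and Hspa13 had no sequence in the table, so only Dnajb9 could be set beside the 3. A match describes the letters only, and a link between the element and the direction was not tested. Capitals mark the element, which the UPR factor Atf6 is known to bind together with NF-Y (RefSeq, GRCm38.p6; chr2:34771840-34772089, plus strand; chr10:86705445-86705694, minus strand; chr14:118937682-118937931, plus strand).

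Hspa5: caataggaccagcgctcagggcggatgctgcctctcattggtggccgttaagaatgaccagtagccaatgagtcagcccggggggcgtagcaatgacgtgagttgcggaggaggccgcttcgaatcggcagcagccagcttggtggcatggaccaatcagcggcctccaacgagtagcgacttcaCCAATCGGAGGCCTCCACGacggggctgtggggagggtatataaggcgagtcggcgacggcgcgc
Hsp90b1: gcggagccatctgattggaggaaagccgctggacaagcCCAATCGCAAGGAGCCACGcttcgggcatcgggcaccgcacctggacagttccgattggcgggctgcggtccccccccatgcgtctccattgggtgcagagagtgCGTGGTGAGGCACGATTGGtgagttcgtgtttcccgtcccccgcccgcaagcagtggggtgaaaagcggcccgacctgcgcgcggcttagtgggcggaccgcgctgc
Dnajc3: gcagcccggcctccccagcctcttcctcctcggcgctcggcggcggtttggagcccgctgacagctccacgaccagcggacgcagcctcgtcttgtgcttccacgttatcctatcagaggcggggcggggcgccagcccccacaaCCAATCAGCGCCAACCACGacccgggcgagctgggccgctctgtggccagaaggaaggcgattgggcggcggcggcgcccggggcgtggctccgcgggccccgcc

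The element lay 65 to 47 bases before the start in Hspa5 and 105 to 87 in Dnajc3, and Hsp90b1 held 2, at 212 to 194 and at 107 to 89 bases.

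Of the regulators, Hsf2, a heat shock factor active in development, was dim and not called, with 6.68, 7.08 and 7.20 in MSC and 6.98, 7.09 and 7 in NCSC (0.035 ± 0.15, SE; interval -0.32 to 0.39). Its other probe set was at 2.12 on every array. Hsbp1, which binds heat shock factor trimers, fell by 0.52 on the log2 scale (SE 0.11; limma adjusted p = 0.00616), and Hsf4 and Hsf5 were at 2.12 on all arrays.

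Further chaperone and stress genes, from 8 lists with 88 genes of which 77 were tested, were called in 46 cases (59.7%), 18 higher and 28 lower in NCSC. The background is again 64.1%, with more genes higher than lower. At least 2-fold changes were called for 10 of them (13%), against 29% of all genes. The median difference was -0.19, against 0.056 over all genes.

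The cytosolic chaperonin TRiC, the ring that folds actin and tubulin, had 5 of 8 tested subunit genes lower, none higher and a median of -0.32. The called share was 62.5%, against 64.1% of all genes, and no TRiC gene was 2-fold apart. Cct2, Cct7 and Tcp1 fell by 0.60, 0.47 and 0.41 on the log2 scale. Prefoldin, which delivers actin and tubulin to TRiC, had 2 of 6 genes higher (Pfdn1, 0.64, and Pfdn2, 0.42) and none lower (33.3% called). Among 14 further HSP40 genes 6 were higher and 1 lower, led by Dnajb2 (1.32), Dnajb12 (1) and Dnaja4 (0.76). That is 50% called, under the 64.1% of all genes, of which 35% were higher and 29.1% lower. With probe sets averaged Dnajb12 differed by 0.48 and Dnaja4 by 0.31, both still called higher. Other HSP70 proteins and exchange factors were evenly split, with 4 of 12 higher and 4 lower (66.7% called). Hspa12a rose by 0.90, and Bag1 and Sil1, an exchange factor of BiP, each fell by 0.80 on the log2 scale. Of 11 genes listed here as further HSP90 cochaperones 3 were higher and 4 lower (63.6% called), with Fkbp8, Fkbp5 and Fkbp4 at -1, -0.63 and -0.51. That list includes Trap1, the mitochondrial HSP90 itself, which was not called (-0.19). The Fkbp4 call was lost without MSC 1, MSC 3 or NCSC 2 (adjusted p = 0.0595, 0.0575 and 0.0515; range over all settings 0.000638 to 0.0595), and its difference was -0.33 with probe sets averaged. Hspb11 and Hspb6, the 2 tested of 5 genes listed here as further small heat shock genes, fell by 1.2 and 0.89 on the log2 scale. Whether Hspb11 acts as a chaperone was not examined.

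Of 23 tested genes of the UPR and of ER folding, 11 were lower in NCSC, 3 were higher and 9 were not called, with a median difference of -0.37 against 0.056 over all genes. The called share was 60.9%, against 64.1% of all genes (29.1% lower and 35% higher), and the direction of the list was not tested. Herpud1, which serves the disposal of ER proteins, fell by 1.91 on the log2 scale (SE 0.21; limma adjusted p = 0.000371). Ddit3 (CHOP), the stress-induced transcription factor, fell by 1.70 (SE 0.46; limma adjusted p = 0.0186). Its NCSC values were 11.45, 11.54 and 9.80 (SD 0.979), so NCSC 3 alone widened the fall. The difference of Ddit3 ran from -2.14 to -1.14 over all settings. It was not called without MSC 1 or MSC 3 (0.0569 each; range over all settings 0.000252 to 0.0881). Chac1, a glutathione-degrading enzyme induced downstream of Atf4, fell by 1.5 (SE 0.26; limma adjusted p = 0.00292). The 3 genes that were higher, named after their values were seen, were the sensors Atf6 (1.12) and Eif2ak3 (Perk, 0.99) and the disposal adaptor Sel1l (0.42). Dnajb9 and Hspa13 were thus higher in the same arrays in which Herpud1, Ddit3 and Chac1 were lower and Hspa5 was not called.

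**Figure D4:**
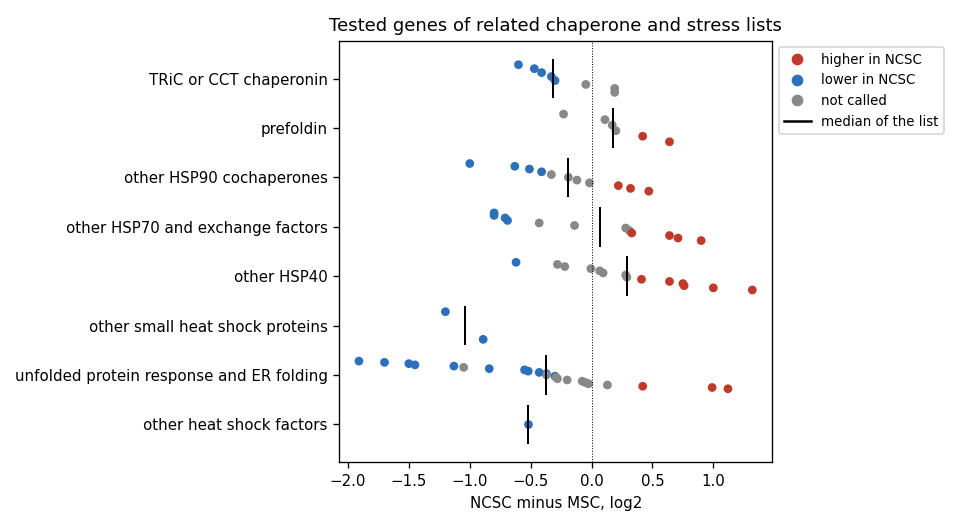
Differences of the 77 tested genes of the 8 related chaperone and stress lists (log2, NCSC minus MSC; points are genes, coloured by call; black bars are list medians). The UPR and ER folding list runs from -1.91 (Herpud1) to 1.12 (Atf6), and no TRiC gene is called higher.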

How the data were processed

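The authors deposited linear probe set intensities, and the submitters' processing notes name GCRMA (version not given in the sources used here). The deposited values ran from 4.36 to 116597, so their log2 was taken, and no further normalization was applied. All 6 columns matched a sample by name. Probe sets were named through the platform annotation, and 932 with several genes and 64 Affymetrix controls were left out. Probe sets with log2 above 4 on at least 3 arrays were kept. The one with the highest mean stood for a gene, and a second fit used each probe set. NCSC and MSC were compared with R 4.3.3 and its package limma 3.58.1 (two-sided eBayes test after lmFit, no covariate). P-values were adjusted by Benjamini-Hochberg over all features tested, and a gene was called under 0.05. Where the dimmer group's mean was at or under the limit, its arrays were set to at least 4 and the fold written "at least". The fit was tested on simulated data. The number of arrays limits the precision.

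The genes, their classes and the related lists were chosen with earlier results of these data known. Every chaperone gene is accounted for, and up to 3 called genes with the largest difference are named for each related list. Motifs were searched in the 250 bases before RefSeq starts (GRCm38.p6), TTCNNGAA having been added after the sequences were seen, and the start farthest upstream was printed. Ptges3 and Ppid were not analysed here. Alternatives covered filters, probe set choice, scaling, fit, thresholds, arrays left out and the replicate number as a block.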

Additional observations from a re-analysis of the deposited data

How the results depend on the processing

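With the calling threshold unchanged, 21 of the 29 tested chaperone genes kept their call or lack of one in every alternative. Among them were 15 of the 19 called genes. Alternatives in which a gene could not be tested are left out. Stricter thresholds kept fewer calls, and at a limma adjusted p under 0.01, 9 chaperone genes were higher and 7 lower. Hspb1 could not be tested without any one MSC array or with the limit required on all arrays. With the threshold unchanged, Hsph1, Dnajc3 and Bag3 lost their call in some settings, and Hspa8, Hsp90aa1, Dnajb4 and Hsp90b1 gained one. Hspa4 changed sign, to 0.053, with the mean of its probe sets. With calls also required to be at least 2-fold, 5 chaperone genes were higher and 3 lower, 17 chaperone probe sets and 10 related genes were called, and 3047 of all genes. Without single arrays the higher calls ran from 9 to 10 and the lower calls from 6 to 10, the chaperone probe sets from 30 to 42, the related genes from 37 to 50 and all genes from 5389 to 6853. Without MSC 2 and NCSC 3 together 10 chaperone genes were higher and 9 lower.

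The replicate numbers are shared by the 2 cell types but nothing in the labels pairs them, and deviations of same-numbered arrays correlated at -0.098, 0.062 and 0.073 across genes. With the replicate number as a block 10 chaperone genes were higher and 9 lower, with 36 probe sets, 42 related genes and 6257 of all genes called. Signals under the background limit have no order, which limits what can be said of Hspb1 in NCSC and of Hspb7.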
